A study of Mus musculus with 9 samples.

Results

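The 44 genes described here encode the alpha chains of the collagens. They were chosen by name alone, as the protein-coding genes of the counts table whose mouse symbol has the form Col, number, a, number, and they were 44 of 37224 genes in the table. Col4a3bp, which shares the first letters of the name and encodes no collagen chain, was left out. By their known assembly the members fell into 11 fibrillar chains, 9 network chains, 6 chains of the beaded filament, 9 fibril-associated chains, 4 transmembrane chains, 2 multiplexins, 1 anchoring fibril chain and 2 others.

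RNA had been sequenced from 3 groups of mouse cells of the C57BL/6 strain, with 3 libraries in each. MEF cells were primary fibroblasts of E13.5 embryos, labelled as passage P0, and a note in their labels that they were moved into medium for neuronal induction does not say whether that preceded RNA extraction. iGABA cells were P0 fibroblasts at 14 days in vitro of conversion toward GABAergic interneurons, kept for 2 days in fibroblast medium before neuronal medium. The conversion is known from the study to rest on forced expression of transcription factors. GAD67 cells were primary interneurons of the E18.5 cortex. Both iGABA and GAD67 cells were sorted for GFP before lysis, while MEF cells were only detached with trypsin, and the labels do not name the GFP reporter. The labels do not say whether libraries of a group came from separate cultures or animals, so the p-values measure the spread between these libraries, which may be technical. Libraries held 27501521 to 38975523 counts. In bulk RNA of this kind, fewer cells of a type and less RNA per cell cannot be told apart.

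Collagens are the main fibrous proteins outside cells. Chains assemble in the endoplasmic reticulum into a triple helix, which needs the smallest amino acid, glycine, at the first place of each repeated Gly-X-Y unit, and hydroxylated proline at many Y places. Fibrillar collagens (types I, II, III, V and XI) pack side by side into the fibrils that fibroblasts lay down in skin, tendon and cartilage. Network collagens such as type IV form the sheets of basement membranes, type VI makes beaded filaments close to cells, and the fibril-associated collagens, also called FACITs, decorate the surface of fibrils. Neurons are known to make few of them, while vessels and meninges supply most collagen of the brain.

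The repeat can be read in the coding sequence. The first 6 triplets of the longest unbroken repeat are shown for the chain with the highest level in MEF cells (Col1a1) and for 3 chains that were higher in iGABA than in MEF cells (Col9a3, Col11a2 and Col6a4). For Col4a1, a basement membrane chain whose repeat is interrupted, the last 4 triplets of the longest repeat are followed by the 6 codons after it. Glycine codons in the repeat are in capitals, and the sequences are from the GENCODE vM21 transcript with the longest coding sequence.
Col1a1: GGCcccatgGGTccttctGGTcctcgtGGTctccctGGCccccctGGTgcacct
Col9a3: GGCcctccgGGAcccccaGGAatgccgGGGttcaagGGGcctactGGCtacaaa
Col11a2: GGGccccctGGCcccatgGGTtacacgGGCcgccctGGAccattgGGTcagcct
Col6a4: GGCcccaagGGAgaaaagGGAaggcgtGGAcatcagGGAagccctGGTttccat
Col4a1: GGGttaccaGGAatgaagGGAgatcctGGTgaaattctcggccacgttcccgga

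The length of the unbroken repeat separated the fibrillar chains from the rest. The longest run of Gly-X-Y triplets was 216 to 344 triplets long in the 11 fibrillar chains, with a median of 338. It was 32 to 113 triplets in the fibril-associated chains, 39 to 66 in the network chains and 37 to 87 in the beaded filament chains. Col24a1 and Col27a1, the fibrillar chains with the shortest runs, had 216 and 217 triplets, and Col1a1 and Col11a2 both had 338. The gene structure showed the same unit: 45.8% of the 627 internal exons of fibrillar genes were 54 bases long, the length of 6 triplets, against 22.5% over all members and 0.366% over the other protein-coding genes of the table. Internal exons of a length divisible by 9 bases, the length of 1 triplet, made up 78.2% in fibrillar genes, 58.9% over all members and 13.2% in other protein-coding genes.

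**Figure D1:**
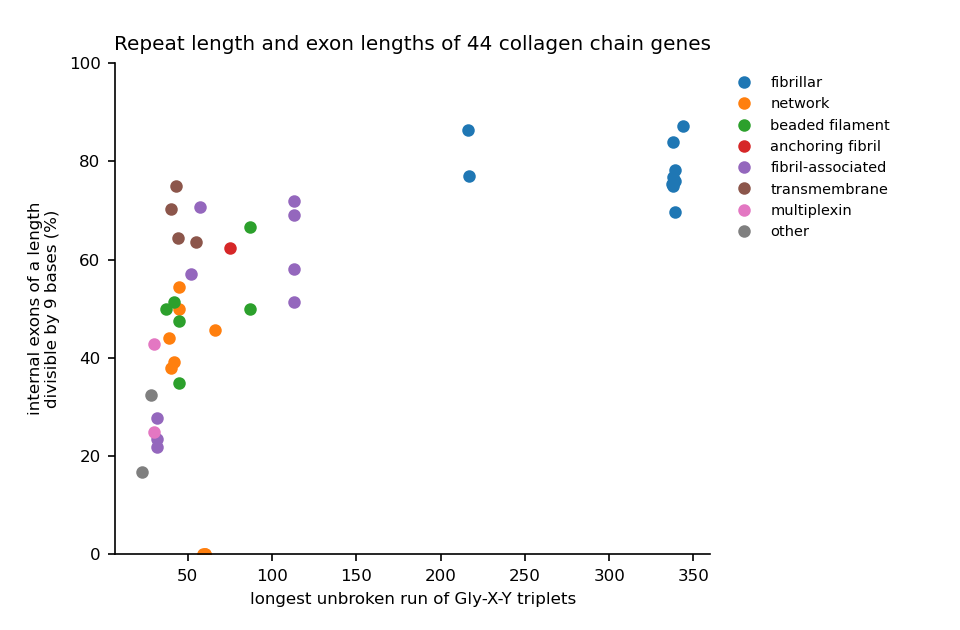
Longest unbroken run of Gly-X-Y triplets (x axis, in triplets) against the share of internal exons whose length is divisible by 9 bases (y axis, percent), with 1 point for each of the 44 genes, coloured by class. The 11 fibrillar genes lie at 216 triplets or more, and all other genes at 113 or fewer.

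Collagen transcripts took 8.09%, 8.65% and 8.45% of all counts in the MEF libraries, 0.176%, 0.145% and 0.202% in the iGABA libraries and 0.0379%, 0.0354% and 0.0374% in the GAD67 libraries. Both sorted groups thus held far less collagen RNA than the fibroblasts, and iGABA libraries lay above all GAD67 libraries. In the comparison of iGABA with MEF cells, 37 members were lower and 6 were higher among the 43 that could be tested (edgeR's quasi-likelihood test, Benjamini-Hochberg adjusted p under 0.05 over 18085 genes). In that comparison 39.7% of all tested genes were called lower and 42.1% higher. With libraries scaled by their size alone, 9941 of all tested genes were higher and 5283 lower, against 7618 and 7188 here, and 36 members were lower. Col17a1, a hemidesmosome chain, did not pass the filter on low counts and stood at 0.302 CPM or less (counts after TMM scaling of the libraries to a common size) everywhere. A member that passed the filter only through a group with a high level had to differ, so the counts describe the members tested and not all 44.

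The falls were deep in many members. The median log2 fold change over the tested members was -4.37 in iGABA against MEF cells, beside 0.0471 over all tested genes. In 22 members the fall was at least 16-fold, a size called in 6.83% of all tested genes. In GAD67 against MEF cells, 39 members were lower and 4 higher, beside 43.8% and 43.1% of all tested genes. Their median log2 fold change was -5.42, beside 0.0016 over all genes, and 31 members were at least 16-fold lower, beside 12.2% of all tested genes. These comparisons share the MEF libraries. The largest adjusted p among called members was 0.0013 in iGABA against MEF cells and 0.00803 in GAD67 against MEF cells (edgeR).

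Fibroblast markers moved with these falls: all 8 of the listed genes (Dcn, Lum, Fn1, Thy1, Pdgfra, Postn, Fbn1 and Prrx1) were lower in iGABA and in GAD67 than in MEF cells. Their summed level was 12500 to 14400 CPM in the MEF, 477 to 530 in the iGABA and 47.8 to 51.5 in the GAD67 libraries. In iGABA libraries Thy1 and Pdgfra still stood at 164 and 152 CPM, and in GAD67 libraries Lum and Dcn were near 0, at 0.0624 and 0.160 CPM. None of the 8 was at 0 in any group. The part of remaining fibroblasts in the collagen levels was not tested.

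Neuronal markers moved the opposite way. The 8 interneuron markers were all higher in both sorted groups than in MEF cells and summed to 7.18 to 8.52 CPM in the MEF, 622 to 634 in the iGABA and 4390 to 4570 in the GAD67 libraries. The 6 pan-neuronal markers summed to 102 to 105, 726 to 742 and 7960 to 8420 CPM, with 5 higher and 1 lower in iGABA than in MEF cells. Marker sums of microglia and macrophages were 144 to 155, 0.281 to 0.346 and 1.67 to 2.01 CPM in the MEF, iGABA and GAD67 libraries, and those of osteoblasts 78.8 to 86.8, 7.22 to 7.55 and 3.16 to 3.79. Within the osteoblast sums Runx2 alone averaged 80.9, 5.48 and 1.77 CPM. Of the 5 osteoblast markers, 1 was higher, 2 were lower and 2 were not called in iGABA against MEF cells. In GAD67 against MEF cells 2 of them were higher and 3 lower. Keratinocyte markers stood at 1.78 CPM or less in each library. Radial glia and astrocyte markers summed to 46.1 to 51.4, 13.6 to 16.3 and 36.7 to 42.2 CPM, glutamatergic neuron markers to 1.97 to 2.34, 1.74 to 1.94 and 31.8 to 52.1, and Cajal-Retzius markers to 5.16 to 6.58, 2.63 to 3.36 and 52.2 to 69.1. Sums and calls parted for some lists. Of all tested genes, 42.1% were called higher and 39.7% lower in iGABA against MEF cells, and 43.1% and 43.8% in GAD67 against MEF cells. Of 5 radial glia and astrocyte markers tested, 2 were higher and 2 lower in iGABA than in MEF cells, near those shares. In GAD67 against MEF cells 3 of these were higher and 2 lower. For glutamatergic neurons 2 of 6 were higher and 1 lower in iGABA, and 5 higher and 1 lower in GAD67 cells. Of 3 Cajal-Retzius markers tested, 2 were higher and 1 lower in iGABA cells, and all 3 were higher in GAD67 cells. The part of these cells in the collagen levels was not tested.

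**Figure D2:**
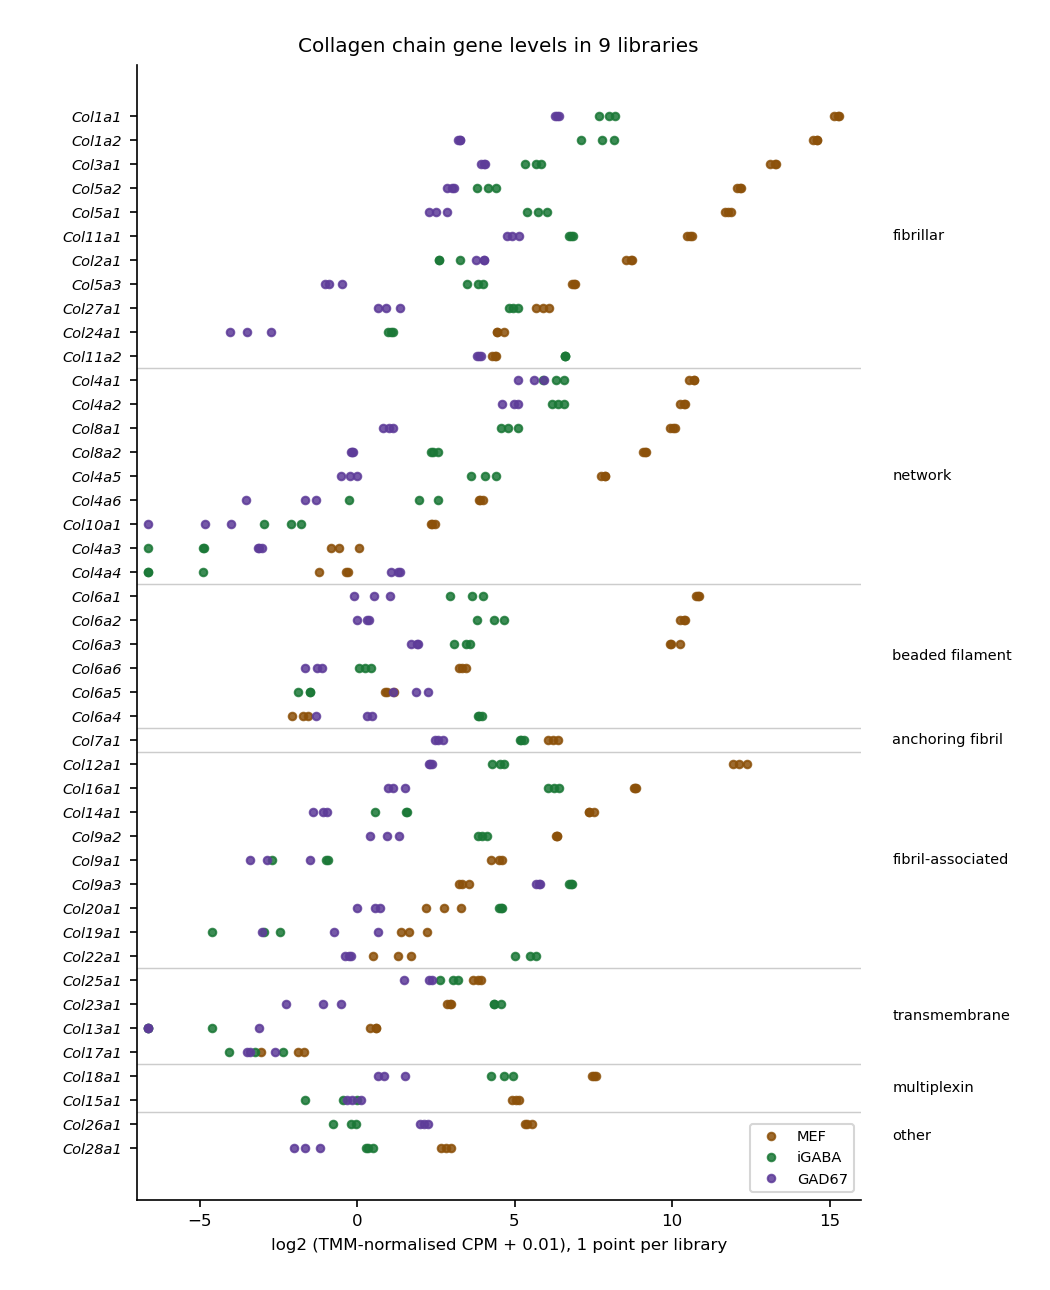
Levels of the 44 members in the 9 libraries on a log2 axis of TMM-normalised CPM plus 0.01, with 1 point per library, coloured by group and ordered by class and by MEF level. For most members the MEF points lie to the right; Col11a2, Col6a4, Col9a3, Col20a1, Col22a1 and Col23a1 are the 6 whose iGABA points lie to the right of the MEF points.

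The fibrillar chains fell most in absolute terms. Of 11 members, 10 were lower and 1 was higher in iGABA than in MEF cells, and all 11 were lower in GAD67 than in MEF cells, with median log2 fold changes of -5.81 and -7.95. Col1a1 and Col1a2 encode the chains of type I collagen, the main fibril of skin, tendon and bone. Col1a1 (ENSMUSG00000001506, chr11:94936224-94953042 on the plus strand of mm10) stood at 36474, 40446 and 39707 CPM in the MEF, 255, 205 and 289.8 in the iGABA and 85.4, 81.7 and 77.4 in the GAD67 libraries. Its level in iGABA libraries was 0.643% of that in MEF libraries, a log2 fold change of -7.28 ± 0.14 (SE; edgeR adjusted p = 7.67e-14). Col1a2 stood at 22689.9, 24839.7 and 24873 CPM in the MEF, 221, 138 and 283 in the iGABA and 9.71, 9.57 and 9.32 in the GAD67 libraries. The groups did not overlap for either gene. Col1a2 was 113-fold lower in iGABA and 2530.0-fold lower in GAD67 than in MEF cells, and its remaining level in GAD67 cells, 0.0395% of MEF, was the lowest among the 28 members with at least 20 CPM in MEF cells.

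Type III collagen, a homotrimer of Col3a1 chains, accompanies type I in skin and vessel walls. Col3a1 stood at 8933, 9772 and 10058 CPM in the MEF, 51.1, 40.2 and 56.8 in the iGABA and 16.4, 16.6 and 15.3 in the GAD67 libraries. Type V collagen, built from Col5a1, Col5a2 and Col5a3, starts fibril assembly and limits fibril width. Col5a1 measured 3285, 3736 and 3545 CPM in the MEF, 54.2, 42.4 and 65.8 in the iGABA and 7.25, 5.70 and 4.86 in the GAD67 libraries. Col5a2 measured 4307, 4618 and 4708 CPM in the MEF, 17.7, 14.1 and 21.5 in the iGABA and 7.31, 8.06 and 8.42 in the GAD67 libraries, and its iGABA level, 0.391% of MEF, was the lowest remaining share in iGABA cells among the same 28 members. Col5a3, the least abundant of these chains, measured 113, 117 and 121 CPM in the MEF, 14.3, 11.2 and 16.1 in the iGABA and 0.715, 0.5303 and 0.4801 in the GAD67 libraries. All 3 chains were thus higher in every iGABA than in every GAD67 library, by log2 fold changes of 3.18 ± 0.17 (SE) for Col5a1, 1.16 ± 0.13 for Col5a2 and 4.57 ± 0.18 for Col5a3.

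Cartilage fibrils are made of type II collagen (Col2a1) with type XI (Col11a1 and Col11a2), which starts their assembly. Col2a1 measured 374, 413 and 422 CPM in the MEF, 6.11, 6.09 and 9.69 in the iGABA and 16.3, 16.3 and 13.6 in the GAD67 libraries. It was lower in iGABA than in GAD67 cells, by a log2 fold change of -1.10 ± 0.15 (SE; edgeR adjusted p = 1.44e-05), the single fibrillar member in that direction. Col11a1 measured 1413, 1588 and 1529 CPM in the MEF, 112, 106 and 115 in the iGABA and 30.5, 27.3 and 35.2 in the GAD67 libraries. Col11a2 (ENSMUSG00000024330, chr17:34039437-34066685 on the plus strand) went the other way in iGABA cells and measured 21.5, 19.5 and 20.7 CPM in the MEF, 96.6, 98.3 and 97.2 in the iGABA and 14.6, 13.9 and 15.3 in the GAD67 libraries. Each iGABA library was above each MEF library, at 473% of the MEF mean, and each GAD67 library was below (log2 fold changes 2.24 ± 0.06 and -0.49 ± 0.06, SE; edgeR adjusted p = 1.22e-12 and 6.7e-06). The 7 chondrocyte markers listed (Acan, Matn1, Matn3, Hapln1, Comp, Snorc and Cytl1) summed to 31.2 to 33.9 CPM in the MEF, 2.10 to 2.52 in the iGABA and 0.0565 to 0.318 in the GAD67 libraries. Matn1, Acan, Matn3 and Hapln1 were each below 0.17 CPM on average in iGABA cells, and 2 of the 7 markers, Snorc and Cytl1, were at 0 in iGABA libraries. The remaining marker, Comp, thus made most of the iGABA sum. The 4 chondrocyte markers tested were all lower in both sorted groups than in MEF cells. Beside them, 39.7% of all tested genes were lower in iGABA and 43.8% in GAD67 than in MEF cells.

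Col24a1 and Col27a1 encode fibrillar chains with a shorter helix, and Col27a1 is known from growing cartilage. Col27a1 measured 68.03, 59.4 and 51.7 CPM in the MEF, 31.05, 28.3 and 34.4 in the iGABA and 1.86, 1.59 and 2.57 in the GAD67 libraries, so that iGABA cells kept 52.3% of the MEF level and GAD67 cells 3.36%. Col24a1 measured 25.2, 21.7 and 21.8 CPM in the MEF, 2.103, 2.22 and 1.97 in the iGABA and 0.0511, 0.0795 and 0.141 in the GAD67 libraries. Among fibrillar members Col27a1 had the smallest difference between iGABA and MEF cells, a log2 fold change of -0.94 ± 0.12 (SE).

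The promoter windows of 4 members are shown because these members moved in unlike ways: Col1a2 fell most in GAD67 cells, Col11a2 and Col6a4 were higher in iGABA than in MEF cells, and Col4a2 shares a start region with Col4a1. Each window covers 250 bases before and 50 bases after the start annotated by RefSeq (GRCm38.p6), 5′ to 3′ on the strand of the gene, with the CCAAT box, the core of the GC box (GGGCGG) and the TATA element (TATAAA) in capitals wherever they occur on either strand. A match is a description of letters only. The windows are chr6:4505368-4505667 (plus strand), chr17:34038888-34039187 (plus), chr9:106096642-106096941 (minus) and chr8:11312555-11312854 (plus), and the first 3 of these starts lie 804, 299 and 92 bases from the first base of the gene in the counts table.
Col1a2: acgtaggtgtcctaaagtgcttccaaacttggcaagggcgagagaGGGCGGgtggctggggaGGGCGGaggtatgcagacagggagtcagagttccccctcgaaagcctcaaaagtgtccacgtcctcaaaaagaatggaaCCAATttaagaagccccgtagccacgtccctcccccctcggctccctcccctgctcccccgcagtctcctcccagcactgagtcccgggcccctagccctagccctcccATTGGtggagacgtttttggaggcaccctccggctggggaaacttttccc
Col11a2: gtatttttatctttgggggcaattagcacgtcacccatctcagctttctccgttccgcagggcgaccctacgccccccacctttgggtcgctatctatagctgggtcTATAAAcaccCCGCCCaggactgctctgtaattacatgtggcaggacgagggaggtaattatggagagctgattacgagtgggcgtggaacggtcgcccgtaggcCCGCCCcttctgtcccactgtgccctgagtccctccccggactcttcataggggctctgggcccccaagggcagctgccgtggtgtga
Col6a4: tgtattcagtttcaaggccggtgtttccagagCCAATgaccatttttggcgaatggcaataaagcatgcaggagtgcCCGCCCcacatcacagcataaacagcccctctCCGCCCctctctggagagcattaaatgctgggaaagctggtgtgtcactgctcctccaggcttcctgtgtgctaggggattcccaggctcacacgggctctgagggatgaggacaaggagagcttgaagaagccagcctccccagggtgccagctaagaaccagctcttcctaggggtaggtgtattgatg
Col4a2: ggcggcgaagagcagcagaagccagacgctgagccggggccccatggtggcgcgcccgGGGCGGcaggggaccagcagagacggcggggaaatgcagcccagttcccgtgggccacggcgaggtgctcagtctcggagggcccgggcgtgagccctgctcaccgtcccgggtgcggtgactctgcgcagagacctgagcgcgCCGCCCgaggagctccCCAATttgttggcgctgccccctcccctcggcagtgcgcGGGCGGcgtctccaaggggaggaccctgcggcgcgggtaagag

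RefSeq windows were matched for 35 members, 38 windows in all. CCAAT, a common promoter element, was present on either strand for 13 of the 35 members and in 37.4% of all 32851 windows. GGGCGG was present for 22 members and in 35.7% of all windows, and TATAAA for 5 members and in 13.6%. ACAANG, a short form of the element that SOX proteins bind, was present for 11 members and in 41.2% of all windows. None of these 4 motifs contains another. The windows of members were richer in G and C, with a median of 59.8% against 52.7%.

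All 9 network members were lower in iGABA than in MEF cells, at a median log2 difference of -4.68, and 8 were lower and 1 higher in GAD67 than in MEF cells. Col4a1 and Col4a2 encode the chains of the common basement membrane network, made by most vessels. Col4a1 measured 1498, 1655 and 1648 CPM in the MEF, 78.9, 59.8 and 94.4 in the iGABA and 48.99, 34.4 and 61.3 in the GAD67 libraries. Col4a2 measured 1209, 1356 and 1328 CPM in the MEF, 82.6, 73.1 and 94.6 in the iGABA and 31.6, 24.4 and 34.9 in the GAD67 libraries. The GAD67 libraries differed among themselves for both, and the highest GAD67 library for Col4a1 lay inside the iGABA range. The log2 fold change of iGABA over GAD67 cells was 0.69 ± 0.18 (SE; edgeR adjusted p = 0.00388) for Col4a1 and 1.46 ± 0.12 (adjusted p = 1.31e-07) for Col4a2.

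Endothelial and pericyte markers varied in the same order over the GAD67 libraries as Col4a1 and Col4a2. Col7a1, Col11a1, Col11a2, Col18a1 and Col27a1 also took that order, while Col4a3, Col4a4, Col4a5 and Col4a6 did not. With 3 libraries few orders are possible, so unrelated genes can share one, and the order was not counted over all genes. The 9 endothelial markers (Pecam1, Cdh5, Kdr, Tek, Tie1, Flt1, Cldn5, Emcn and Esam) summed to 32.9, 16.9 and 59.1 CPM in the GAD67 libraries, to 2.60 to 5.13 in iGABA and to 236 to 254 in MEF libraries, where Flt1 alone gave 228 CPM. By calls, 5 of the 9 were higher, 1 was lower and 3 were not called in GAD67 against MEF cells. In that comparison 43.1% of all tested genes were called higher and 43.8% lower. All 9 were lower in iGABA than in GAD67 cells, beside 39.3% of all tested genes. Cldn5, Cdh5 and Tie1, which are nearly restricted to endothelium, averaged 7.03, 3.35 and 2.42 CPM in GAD67 libraries, and Cdh5 and Tie1 were the 2 endothelial markers at 0 in all iGABA libraries. The 9 pericyte and mural markers summed to 27.4, 14.7 and 47.2 CPM in the GAD67 libraries, 43.7 to 56.4 in iGABA and 790 to 837 in MEF libraries. The part of vessel cells in the type IV collagen levels of GAD67 cells was not tested.

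Col4a5 and Col4a6, chains of the basement membranes of muscle, kidney and other organs, lie head to head on the X chromosome with 1308 bases between them. Col4a5 measured 213, 232 and 237 CPM in the MEF, 16.7, 12.3 and 21.4 in the iGABA and 0.6897, 0.848 and 0.988 in the GAD67 libraries. Col4a6 measured 15.8, 14.7 and 14.9 CPM in the MEF, 3.91, 0.836 and 5.91 in the iGABA and 0.0766, 0.398 and 0.311 in the GAD67 libraries. Both were at their lowest in GAD67 libraries, and the iGABA libraries spread widely for Col4a6, whose log2 fold change from MEF cells was -2.12 ± 0.42 (SE; edgeR adjusted p = 0.000429).

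Col4a3 and Col4a4, partners of Col4a5 in the membrane of the kidney glomerulus, also lie head to head, 71 bases apart on chromosome 1. Col4a4 (ENSMUSG00000067158, chr1:82452558-82586849 on the minus strand) measured 0.769, 0.428 and 0.815 CPM in the MEF, 0, 0.0239 and 0 in the iGABA and 2.09, 2.47 and 2.57 in the GAD67 libraries. It was the single network member that was higher in GAD67 than in MEF cells, by a log2 fold change of 1.82 ± 0.27 (SE; edgeR adjusted p = 2.71e-05). The iGABA libraries held 1 count of Col4a4 in all against 266 in the GAD67 libraries, a ratio of 271 for GAD67 over iGABA cells with an exact 95% counting interval of 48.2 to 10700. Its neighbour Col4a3 was called in the same direction between these groups at a far lower level, with 2 counts in the iGABA and 12 in the GAD67 libraries, a ratio of 6.11 with an interval of 1.36 to 56.2. Col4a3 was lower in GAD67 than in MEF cells, unlike Col4a4. The 22 bases that Col4a1 and Col4a2 share at their starts are 0.332% or less of either gene's exon length.

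Type VIII collagen forms hexagonal networks under endothelia. Col8a1 measured 981, 1039 and 1086 CPM in the MEF, 27.8, 23.6 and 34.2 in the iGABA and 1.76, 2.201 and 2.03 in the GAD67 libraries. Col8a2 measured 546, 566 and 583 CPM in the MEF, 5.37, 5.09 and 5.97 in the iGABA and 0.894, 0.901 and 0.875 in the GAD67 libraries. No group overlapped another for these chains, and iGABA cells kept 2.76% of the MEF level of Col8a1 and 0.969% of that of Col8a2. Col10a1, a chain of hypertrophic cartilage, was at 5.07 CPM or more in MEF libraries and at 0.281 CPM or less in the others, with 23 counts in the iGABA and 3 in the GAD67 libraries in all.

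Type VI collagen is built from Col6a1, Col6a2 and 1 of the longer chains Col6a3 to Col6a6. Of these 6 beaded filament members, 5 were lower and 1 was higher in iGABA than in MEF cells, and 4 were lower and 2 were higher in GAD67 than in MEF cells. Col6a1 measured 1749, 1802 and 1865 CPM in the MEF, 12.5, 7.74 and 16.1 in the iGABA and 1.46, 2.07 and 0.932 in the GAD67 libraries. Col6a2 measured 1228, 1333 and 1357 CPM in the MEF, 20.6, 14.1 and 25.5 in the iGABA and 0.996, 1.299 and 1.24 in the GAD67 libraries. Col6a3 measured 992, 1225 and 976 CPM in the MEF, 11.01, 8.38 and 12.01 in the iGABA and 3.81, 3.74 and 3.28 in the GAD67 libraries. The 3 common chains fell by log2 fold changes of -7.23 ± 0.24, -6.03 ± 0.18 and -6.67 ± 0.14 (SE) in iGABA cells, in the order named, and in every library of the sorted groups they were below each MEF library.

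The longer chains Col6a4, Col6a5 and Col6a6 lie next to each other in the same orientation on chromosome 9, and they moved apart. Col6a4 (ENSMUSG00000032572, chr9:105989454-106096783 on the minus strand) measured 0.293, 0.2303 and 0.332 CPM in the MEF, 15.7, 14.6 and 14.2 in the iGABA and 1.23, 1.38 and 0.395 in the GAD67 libraries. Each iGABA library was above each library of the other groups, with 52.0 times the MEF and 14.8 times the GAD67 level (log2 fold change from MEF 5.68 ± 0.32, SE; edgeR adjusted p = 2.22e-09). Col6a5 measured 1.83, 2.27 and 1.93 CPM in the MEF, 0.346, 0.263 and 0.344 in the iGABA and 3.65, 4.799 and 2.203 in the GAD67 libraries, lowest in iGABA libraries. It was called higher in GAD67 than in MEF cells (log2 fold change 0.82 ± 0.25, SE; edgeR adjusted p = 0.00803), though 1 GAD67 library lay within the MEF range. Col6a6 measured 10.1, 10.9 and 9.51 CPM in the MEF, 1.36, 1.19 and 1.03 in the iGABA and 0.409, 0.451 and 0.311 in the GAD67 libraries, highest in MEF and lowest in GAD67 libraries. Col6a4 was the member with the largest log2 fold change above MEF in iGABA cells, from a MEF level of 0.285 ± 0.0514 CPM (SD, n = 3).

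The 9 fibril-associated members split. In iGABA against MEF cells 3 were higher and 6 lower, and in GAD67 against MEF cells 1 was higher and 8 lower. Type IX collagen, built from Col9a1, Col9a2 and Col9a3, coats cartilage fibrils. Col9a3 (ENSMUSG00000027570, chr2:180597790-180622189 on the plus strand) measured 11.7, 10.003 and 9.48 CPM in the MEF, 106, 109.8 and 112 in the iGABA and 56.5, 54.6 and 51.9 in the GAD67 libraries. It stood at 10.5 times its MEF level in iGABA cells and at 5.23 times that level in GAD67 cells (log2 fold changes 3.40 ± 0.08 and 2.39 ± 0.08, SE; edgeR adjusted p = 3.05e-13 and 3.85e-12). Its partners went down: Col9a2 measured 81.7, 79.4 and 81.03 CPM in the MEF, 14.5, 15.6 and 17.6 in the iGABA and 1.94, 2.49 and 1.33 in the GAD67 libraries. Col9a1 measured 19.2, 22.6 and 24.2 CPM in the MEF, 0.5195, 0.143 and 0.5003 in the iGABA and 0.128, 0.345 and 0.0847 in the GAD67 libraries. No group overlapped another for Col9a3 or Col9a2, while the iGABA and GAD67 libraries overlapped for Col9a1 (log2 fold change 1.002 ± 0.54, 95% interval -0.17 to 2.18). Col9a3 shares 234 bases, 6.07% of its exon length, with Tcfl5 on the opposite strand, and the strand setting of the counting is not given in the sources used here. Tcfl5 had 77 to 93 counts in the MEF, 2 to 5 in the iGABA and 9 to 20 in the GAD67 libraries.

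Col20a1 and Col22a1 were the other fibril-associated members that rose in iGABA cells. Col22a1, a chain of the junction of muscle with tendon, measured 2.45, 1.41 and 3.29 CPM in the MEF, 44.8, 32.2 and 51.4 in the iGABA and 0.869, 0.822 and 0.763 in the GAD67 libraries. Its iGABA level was 17.9 times that of MEF and 52.4 times that of GAD67 cells, and the log2 difference from GAD67 cells, 5.70 ± 0.26 (SE), was the largest of the 34 members higher in iGABA cells. Col20a1, whose role is little known, measured 9.89, 6.78 and 4.59 CPM in the MEF, 22.7, 23.6 and 24.2 in the iGABA and 1.63, 0.981 and 1.47 in the GAD67 libraries. Its MEF libraries differed by more than 2-fold among themselves, and its log2 fold change from MEF was 1.74 ± 0.21 (SE; edgeR adjusted p = 4.61e-06). The 6 skeletal muscle markers (Myod1, Myog, Myh3, Actc1, Chrna1 and Ttn) summed to 20.1 to 20.9 CPM in the MEF, 0.549 to 1.34 in the iGABA and 0.536 to 1.13 in the GAD67 libraries. Of the Schwann cell markers, Sox10 measured 4.03, 3.72 and 3.75 CPM in the MEF, 1.68, 2.604 and 2.28 in the iGABA and 0.511, 0.663 and 0.113 in the GAD67 libraries. Erbb3 measured 4.03, 3.92 and 3.47 CPM in the MEF, 5.94, 5.21 and 5.53 in the iGABA and 0.204, 0.106 and 0.113 in the GAD67 libraries, and Foxd3 was at 0 in both sorted groups. On this TMM scale each iGABA library lay above each MEF library for Erbb3 and below each for Sox10, and these 3 genes are not the whole list. The part of muscle or Schwann cells in the members that rose was not tested.

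Col12a1 and Col14a1 bind the fibrils of tendon and skin. Col12a1 measured 4451, 5297 and 3880.5 CPM in the MEF, 23.4, 19.5 and 25.5 in the iGABA and 5.24, 4.93 and 4.86 in the GAD67 libraries. Col14a1 measured 166, 183 and 167 CPM in the MEF, 3.02, 1.48 and 2.94 in the iGABA and 0.4598, 0.504 and 0.367 in the GAD67 libraries. Col16a1, found in skin and smooth muscle, measured 459, 448 and 454 CPM in the MEF, 75.7, 67.2 and 85.2 in the iGABA and 2.22, 2.86 and 1.98 in the GAD67 libraries. iGABA cells kept 16.8% of the MEF level of Col16a1 but 0.502% of that of Col12a1 and 1.44% of that of Col14a1. GAD67 cells kept 0.519%, 0.1103% and 0.258% of the 3. Col19a1, a chain known from interneurons of hippocampus and cortex, was low throughout, at 2.60 to 4.61 CPM in the MEF, 0.0313 to 0.173 in the iGABA and 0.113 to 1.56 in the GAD67 libraries. It was called lower in iGABA than in GAD67 cells although the libraries overlapped, and without GAD67 library 8 the adjusted p was 0.0502 (edgeR).

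Transmembrane members are anchored in the cell surface and can be shed. Col23a1 measured 7.21, 7.77 and 7.82 CPM in the MEF, 20.6, 20.4 and 23.6 in the iGABA and 0.4598, 0.689 and 0.198 in the GAD67 libraries, so that each iGABA library was above each MEF library and each GAD67 library below. Its log2 fold changes were 1.498 ± 0.15 from MEF to iGABA and -4.06 ± 0.23 from MEF to GAD67 cells (SE; edgeR adjusted p = 8.83e-07 and 1.38e-09). Col25a1, a neuronal membrane collagen first found in amyloid plaques, measured 12.9, 15.2 and 14.4 CPM in the MEF, 8.34, 6.23 and 9.22 in the iGABA and 5.21, 4.88 and 2.796 in the GAD67 libraries. It was lower in iGABA than in MEF cells by a log2 fold change of -0.84 ± 0.19 (SE; edgeR adjusted p = 0.0013), and with libraries scaled by their size alone the value was -0.42 and the adjusted p 0.0656. Col13a1, a chain of the neuromuscular junction, was at 1.32 to 1.51 CPM in MEF libraries, with 131 counts there, 1 in the iGABA and 4 in the GAD67 libraries, the last all in 1 library.

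The multiplexins Col15a1 and Col18a1 sit at the outer side of basement membranes, and Col18a1 is the source of endostatin. Col18a1 measured 175, 184 and 191 CPM in the MEF, 25.2, 19.1 and 30.9 in the iGABA and 1.79, 1.56 and 2.85 in the GAD67 libraries. Col15a1 measured 30.6, 33.3 and 35.2 CPM in the MEF, 0.9896, 0.311 and 0.719 in the iGABA and 0.894, 1.09 and 0.791 in the GAD67 libraries. For Col15a1 the iGABA and GAD67 libraries overlapped, with a log2 fold change of -0.47 ± 0.31 (SE; 95% interval -1.15 to 0.20). Col7a1, the anchoring fibril of skin, measured 83.4, 74.4 and 67.3 CPM in the MEF, 36.6, 39.8 and 36.3 in the iGABA and 5.93, 5.59 and 6.61 in the GAD67 libraries. iGABA cells kept 50.04% of its MEF level, the third largest share among the 28 members with at least 20 CPM in MEF cells after Col11a2 and Col27a1. Col26a1, an unusual short collagen of testis and ovary, measured 40.2, 42.1 and 46.6 CPM in the MEF, 0.965, 0.573 and 0.876 in the iGABA and 4.802, 4.32 and 4.01 in the GAD67 libraries, with each iGABA library below each GAD67 library. Col28a1, known from peripheral nerve, measured 7.91, 7.04 and 6.37 CPM in the MEF, 1.26, 1.22 and 1.41 in the iGABA and 0.434, 0.239 and 0.311 in the GAD67 libraries.

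Set directly against the interneurons, the converted cells held more RNA of most chains. In iGABA against GAD67 cells 34 of the 43 tested members were higher, 6 lower and 3 not called, beside 41.3% and 39.3% of all tested genes called higher and lower. The median log2 fold change over the members was 2.45, beside 0.0221 over all tested genes. The 6 lower members were Col4a4, Col6a5, Col19a1, Col26a1, Col4a3 and Col2a1. The 3 not called were Col9a1, Col13a1 and Col15a1, and the interval for Col13a1, -4.80 to 1.46, covers large differences in both directions. Among the higher members, the differences ran from 0.69 ± 0.18 (SE) for Col4a1 to 5.70 ± 0.26 for Col22a1. The listed markers of meningeal fibroblasts were 10 genes, among them Foxc1, Tbx18, Lum and Dcn. They summed to 868 to 965 CPM in the MEF, 23.6 to 28.9 in the iGABA and 1.43 to 2.40 in the GAD67 libraries. Dcn and Lum, also on the fibroblast list, averaged 406 and 419 CPM in MEF libraries. Of the 7 meningeal markers tested, 6 were lower and 1 was higher in each sorted group than in MEF cells. Col1a1 averaged 81.5 ± 4.02 CPM (SD, n = 3) in GAD67 cells. The part of meningeal cells in the collagen levels was not tested.

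**Figure D3:**
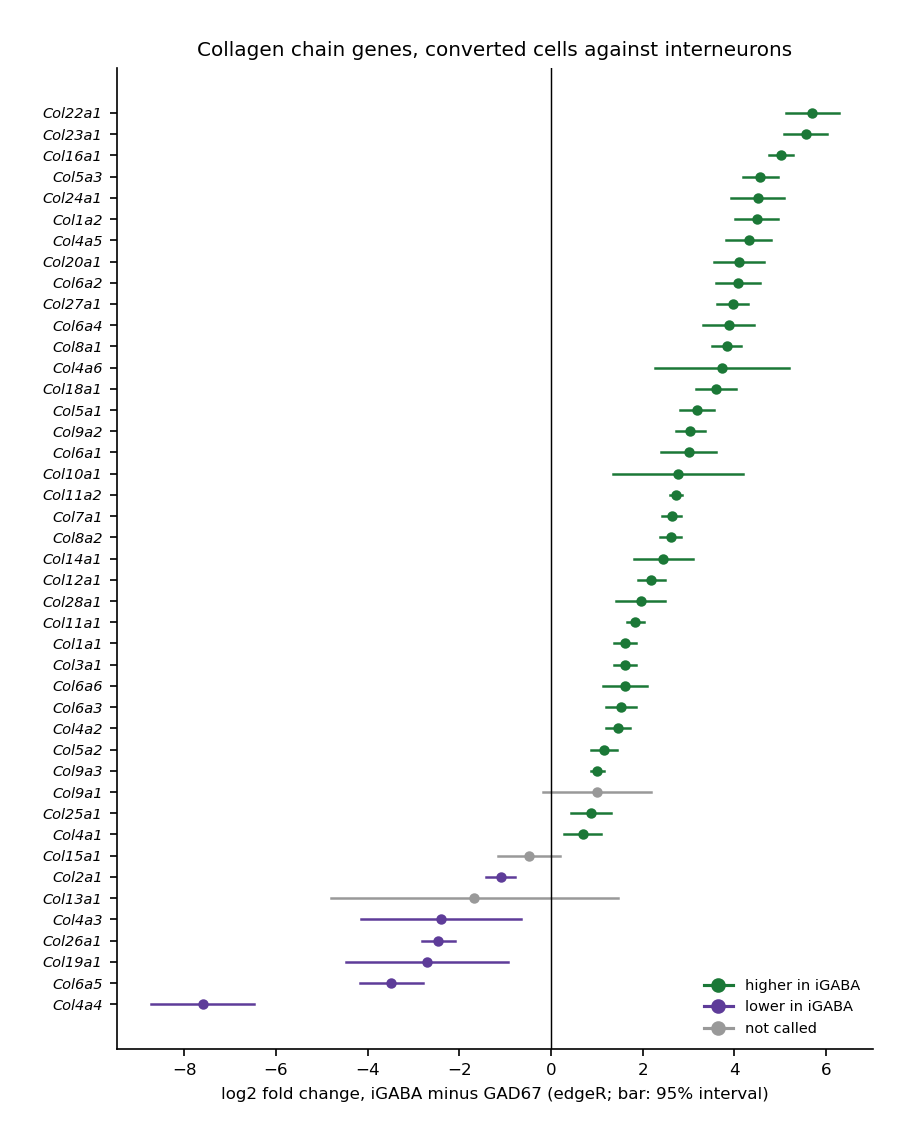
Log2 fold change of iGABA over GAD67 cells for the 43 tested members (x axis), sorted, with 95% intervals from edgeR and coloured by call. Col22a1 lies at 5.70 at one end and Col4a4 at -7.60 at the other, and the bars of Col9a1, Col13a1 and Col15a1 cross 0.

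Libraries of a group tended to keep their order from member to member. Of 34 members with a mean of at least 1 CPM in iGABA cells, iGABA library 5 was the lowest of the group in 26 and iGABA library 6 the highest in 28. Fibroblast markers followed the same order, with sums of 520, 477 and 530 CPM in iGABA libraries 4, 5 and 6. Interneuron marker sums, at 625, 622 and 634 CPM, took it too, while pan-neuronal sums, at 742, 742 and 726, did not. The order was counted over members only and not over all genes, and the part of fibroblasts in it was not tested. Of the members that rose, Col22a1 and Col23a1 followed that order, Col6a4 was lowest in library 6, and Col11a2, Col20a1 and Col9a3 differed by less than 1.1-fold among the iGABA libraries. In MEF cells library 1 was the lowest in 24 of 40 members, and in GAD67 cells library 9 in 15 of 27.

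The make-up of the collagen RNA also differed between groups. Levels of different genes were set on a common scale as CPM per kilobase of exon, with the length given in the deposited table. The summed level of all members was 12129 ± 622 CPM per kilobase in the MEF, 212.7 ± 29.1 in the iGABA and 57.4 ± 2.14 in the GAD67 libraries (SD, n = 3). Of this sum, fibrillar chains made 84.1% ± 0.341 in the MEF, 47.6% ± 1.40 in the iGABA and 43.2% ± 1.34 in the GAD67 libraries. Fibril-associated chains made 3.51% ± 0.381, 26.98% ± 2.26 and 27.9% ± 1.98, network chains 6.57% ± 0.0839, 15.8% ± 0.802 and 22.2% ± 4.29, and beaded filament chains 5.44% ± 0.0791, 3.73% ± 0.365 and 2.44% ± 0.738. For each of these classes both sorted groups lay apart from the MEF libraries, and 3 libraries against 3 cannot give an exact permutation p below 0.10. iGABA and GAD67 libraries overlapped only in the fibril-associated share among these 4 classes. The chains behind that share differed in weight. Col9a3 alone made 24.6% ± 1.29 of the sum in GAD67 and 13.496% ± 1.82 in iGABA libraries. On average Col16a1, Col20a1, Col9a2 and Col22a1 made 5.31%, 2.67%, 2.43% and 2.17% in iGABA libraries. In GAD67 libraries the same chains made 0.610%, 0.562%, 1.09% and 0.155%. Col9a1 and Col19a1 averaged larger shares in GAD67 than in iGABA libraries, at 0.0650% and 0.195% in GAD67 libraries.

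**Figure D4:**
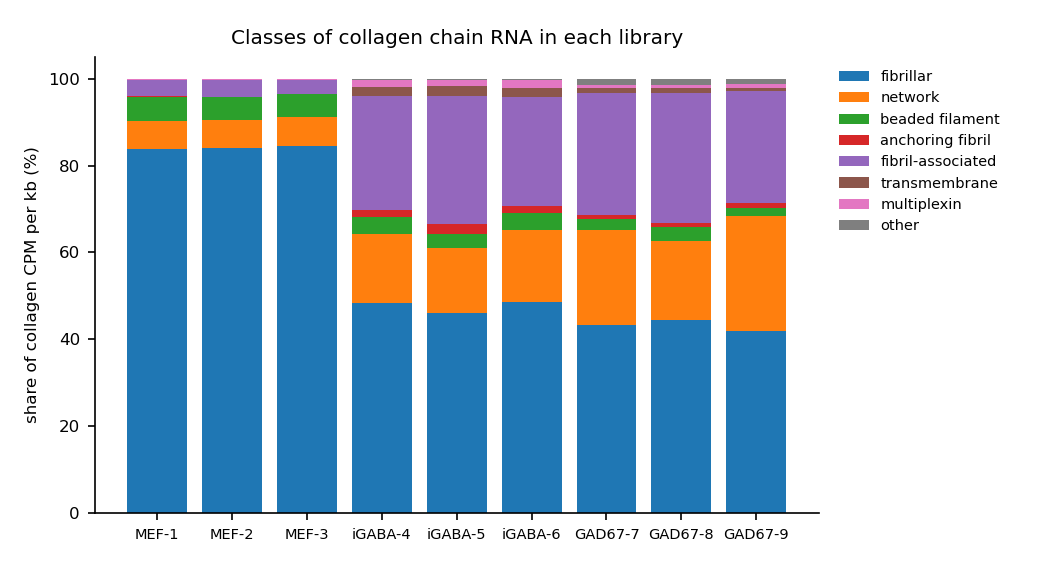
Share of each class in the summed collagen CPM per kilobase (y axis, percent) for each library, as stacked bars that add to 100. Fibrillar chains fill 83.8% or more of each MEF bar and 48.5% or less of each bar of the sorted groups, where the fibril-associated part is larger.

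In MEF libraries 3 chains, Col1a1, Col1a2 and Col3a1, held 74.7% of the collagen RNA on the per-kilobase scale, and 9 chains held 90%. In iGABA libraries Col1a1, Col9a3 and Col1a2 led with 39.5%, and 18 chains were needed for 90%. In GAD67 libraries Col9a3, Col1a1 and Col4a1 led with 58.5%, and 14 chains held 90%. Col9a3, ranked 29 among the members in MEF cells, was ranked 2 in iGABA and 1 in GAD67 cells, with 2.696 ± 0.298, 28.4 ± 0.848 and 14.1 ± 0.608 CPM per kilobase (SD, n = 3). Its share of the collagen RNA was 24.6% ± 1.29 in GAD67 libraries, and Col1a1 took 21.6% ± 1.17 there.

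Chains that assemble together did not keep their ratios. Per kilobase, the ratio of Col1a1 to Col1a2, which combine 2 to 1 in type I collagen, was 2.98 ± 0.0299 in the MEF, 2.26 ± 0.441 in the iGABA and 15.8 ± 0.460 in the GAD67 libraries (SD, n = 3). The ratio depends on the length used: with the length of the transcript with the longest coding sequence, an alternative chosen after seeing the data, it was 1.453, 1.101 and 7.709, and the order of the groups is the same by construction. Col11a1 to Col11a2 gave 52.1 ± 5.49 in the MEF, 0.807 ± 0.0370 in the iGABA and 1.496 ± 0.121 in the GAD67 libraries. Col9a3 to Col9a2 gave 0.103 ± 0.0106, 5.56 ± 0.382 and 24.1 ± 6.91. Col5a1 to Col5a2 gave 0.875 ± 0.0338, 3.43 ± 0.0419 and 0.858 ± 0.240, so that iGABA libraries lay apart from both other groups, which overlapped. In each of these pairs the groups said to differ did not overlap, which at 3 against 3 corresponds to the smallest exact permutation p, 0.10.

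The network and beaded filament pairs shifted too. Col4a1 to Col4a2, transcribed from the same start region in opposite directions, gave 1.197 ± 0.0111 in the MEF, 0.897 ± 0.0916 in the iGABA and 1.53 ± 0.170 in the GAD67 libraries. Col6a1 to Col6a2 gave 2.63 ± 0.0700, 1.13 ± 0.0794 and 2.41 ± 0.861, and MEF and GAD67 libraries overlapped. With transcript length this ratio was 1.332, 0.575 and 1.221. Col8a1 to Col8a2 gave 1.61 ± 0.0293, 4.56 ± 0.479 and 1.97 ± 0.215. Col4a5 to Col4a6 gave 17.9 ± 1.62, 8.93 ± 7.37 and 5.66 ± 4.39, where iGABA libraries overlapped both other groups.

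**Figure D5:**
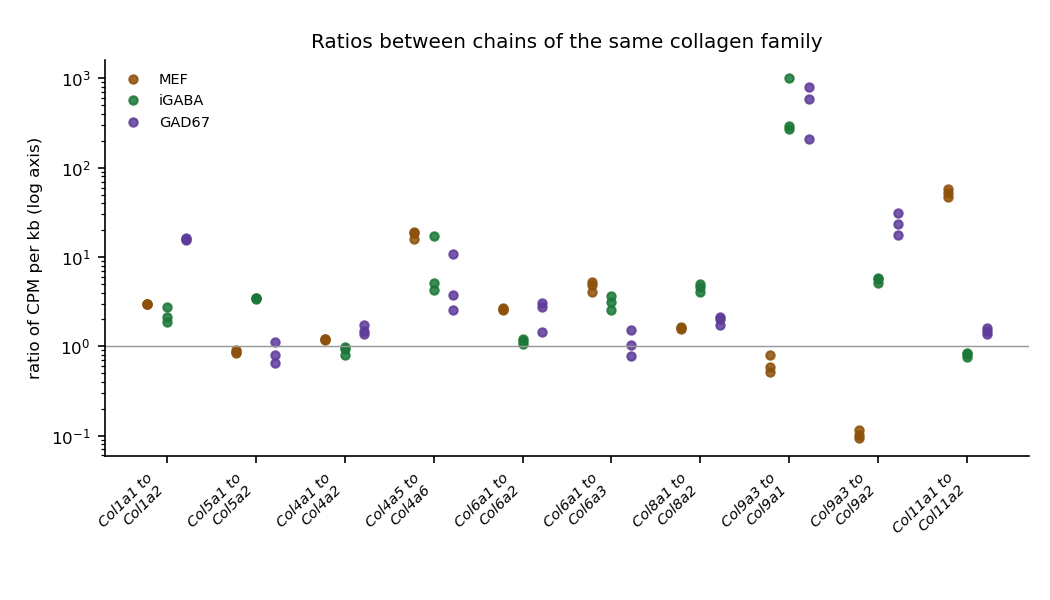
Ratios of CPM per kilobase between chains of the same family (y axis, log scale), with 1 point per library and colours for the groups; the line marks a ratio of 1. The ratio of Col11a1 to Col11a2 lies between 46.6 and 57.6 in MEF libraries and between 0.766 and 1.62 in the others.

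Making a collagen takes enzymes and chaperones of the endoplasmic reticulum. Of 18 listed genes of this kind, 17 were lower in iGABA than in MEF cells and 1, the prolyl isomerase Fkbp14, was not called; all 18 were lower in GAD67 than in MEF cells. With libraries scaled by size alone Fkbp14 was called higher in iGABA than in MEF cells (0.62), and Colgalt2 lost its call in GAD67 against MEF cells (-0.69). The list's median log2 fold changes were -2.78 and -4.97. For this and the following lists, 39.7% of all tested genes were called lower and 42.1% higher in iGABA against MEF cells. The shares lower and higher were 43.8% and 43.1% in GAD67 against MEF cells, and 39.3% and 41.3% in iGABA against GAD67 cells. The collagen chaperone Serpinh1 averaged 4693 ± 281 CPM in the MEF, 508 ± 15.6 in the iGABA and 11.8 ± 3.56 in GAD67 cells (SD, n = 3). iGABA cells thus kept 10.8% of its level, while the median share kept by the 28 collagen members with at least 20 CPM in MEF cells was 1.96%. GAD67 cells kept 0.251% of the Serpinh1 level, below the median share of 0.443% for the same members. Of the prolyl hydroxylases, P4ha3 and P4ha2 fell by log2 fold changes of -6.91 ± 0.15 and -4.51 ± 0.11 (SE), and P3h2 by -5.08 ± 0.26. In GAD67 cells the largest falls were in Fkbp10 (-9.07 ± 0.10), Serpinh1 (-8.64 ± 0.20) and P4ha3 (-8.27 ± 0.17). Against GAD67 cells, 15 of the 18 were higher in iGABA cells, led by Serpinh1, Fkbp10 and the lysyl hydroxylase Plod1 (4.98 ± 0.12), and 1 was lower, Colgalt2 (-2.77 ± 0.52).

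Of 6 genes for export of large cargo from the endoplasmic reticulum, 4 were lower in iGABA than in MEF cells, 1 was higher and 1 was not called, and in GAD67 cells 5 were lower and 1 was higher than in MEF cells. The coat protein gene Sec24d fell most (-4.51 ± 0.06, SE), followed by Tmem39a (-2.39 ± 0.06) and Sec23a (-1.28 ± 0.06). Klhl12 was higher (0.42 ± 0.07) and Mia2 was not called, though with libraries scaled by size alone it was called higher (0.38). The list's median log2 fold change was -0.784 in iGABA and -1.21 in GAD67 cells. Mia3, which loads procollagen into carriers, was called lower by -0.28, and with libraries scaled by size alone it was called higher, by 0.13. In iGABA against GAD67 cells 5 of the 6 were higher, led by Sec24d (2.74 ± 0.08), Mia2 (0.94 ± 0.06) and Mia3 (0.45 ± 0.05), and 1 was not called.

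Of 8 genes for the removal of propeptides, 7 were lower in iGABA than in MEF cells, and the remaining Tll2 was not called, with a median log2 fold change of -5.02. Pcolce, which speeds up cleavage of the C-propeptide, averaged 993 ± 42.6 CPM in the MEF, 8.98 ± 3.16 in the iGABA and 0.801 ± 0.203 in GAD67 cells. The largest falls in iGABA cells were in Pcolce (-6.80 ± 0.20, SE), Adamts14 (-6.57 ± 0.14) and Pcolce2 (-5.48 ± 0.30), and in GAD67 cells in Pcolce (-10.27 ± 0.25), Adamts2 (-7.29 ± 0.12) and Adamts14 (-7.08 ± 0.15). In GAD67 against MEF cells 7 were lower, at a list median of -4.31, and Tll2 was higher (4.56 ± 0.60, SE), from 0.0345 to 0.858 CPM. The N-propeptidase genes parted between the sorted groups: Adamts2 was higher in iGABA cells (3.76 ± 0.14) and Adamts3 was lower (-3.22 ± 0.14), with Adamts3 at 37.1 CPM in GAD67 and 4.01 in iGABA cells. Between these groups 2 of the 8 were higher in iGABA cells, 4 lower, among them Tll2 (-4.19 ± 0.54) and Tll1 (-1.96 ± 0.20), and 2 not called. Of all tested genes, 41.3% were called higher and 39.3% lower there.

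All 5 lysyl oxidases, which cross-link collagen outside the cell, were lower in both sorted groups than in MEF cells and higher in iGABA than in GAD67 cells. Lox averaged 4858 ± 205 CPM in the MEF, 18.49 ± 2.47 in the iGABA and 1.68 ± 0.214 in GAD67 cells (SD, n = 3), a log2 fold change of -8.04 ± 0.12 (SE) in iGABA cells. Loxl2 fell by a similar size (-7.32 ± 0.15) and Loxl1 and Loxl3 by less (-3.29 ± 0.08 and -2.64 ± 0.06), with Loxl4 between (-6.74 ± 0.20), and the list's median was -6.74 in iGABA and -8.28 in GAD67 cells.

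Of the 10 listed collagen receptors, 9 were tested and Gp6 was at 0 in all groups. In iGABA against MEF cells 6 were lower, 2 higher and 1 not called, and in GAD67 against MEF cells 8 were lower and 1 higher, with medians of -2.99 and -4.53. Ddr1, a receptor tyrosine kinase that collagen activates, was higher in both sorted groups, with 169 ± 6.17 CPM in the MEF, 369.8 ± 8.94 in the iGABA and 233 ± 5.18 in GAD67 cells (log2 fold changes 1.13 ± 0.05 and 0.46 ± 0.05, SE; edgeR adjusted p = 2.27e-10 and 1.52e-06). Its relative Ddr2 stood at 499 ± 35.2, 159 ± 7.41 and 2.64 ± 0.567 CPM in the same order of groups. Itga11, the integrin chain for fibrillar collagen, fell by -7.32 ± 0.11 in iGABA cells, followed by Itga1 (-6.37 ± 0.25) and Lair1 (-6.28 ± 0.51), and Itga2 was higher (0.90 ± 0.32). In GAD67 cells the largest falls were in Itga11 (-10.31 ± 0.14), Ddr2 (-7.56 ± 0.12) and the endocytic receptor Mrc2 (-7.22 ± 0.16). Between the sorted groups 7 receptors were higher in iGABA cells, led by Ddr2 (5.91 ± 0.11), Itga2 (4.63 ± 0.47) and Mrc2 (2.99 ± 0.14), Lair1 was lower (-1.93 ± 0.84, a call lost with size scaling alone) and 1 was not called.

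Of 10 transcription factors known to act on collagen genes, 8 were lower and 2 higher in iGABA than in MEF cells, and 7 were lower and 3 higher in GAD67 than in MEF cells, with medians of -1.74 and -2.01. Prrx1, Runx2 and Sp7 fell most in iGABA cells (-6.51 ± 0.16, -3.88 ± 0.10 and -3.27 ± 0.35, SE), and Scx, a factor of tendon cells, and Sox5 were higher (0.78 ± 0.12 and 0.71 ± 0.10). In GAD67 cells the cartilage factors Sox6, Sox5 and Sox9, which interneurons or neural progenitors also express, were higher than in MEF cells (3.21 ± 0.10, 2.52 ± 0.10 and 1.76 ± 0.18), and Prrx1 (-8.76 ± 0.18), Creb3l1 (-7.84 ± 0.12) and Runx2 (-5.50 ± 0.12) were lowest against MEF cells. Sox6 was called lower in iGABA than in MEF cells, and with libraries scaled by size alone it was not called. Sox9 averaged 17.2 ± 1.47 CPM in the MEF, 7.09 ± 1.36 in the iGABA and 58.3 ± 15.96 in GAD67 cells, and Scx 24.7 ± 2.15, 42.5 ± 1.75 and 0.5703 ± 0.274 CPM. Creb3l1, an activator of type I collagen in bone, was higher in iGABA than in GAD67 cells (4.79 ± 0.14), as were Scx (6.19 ± 0.18) and Prrx1 (2.25 ± 0.19), 5 of the 10 in all, while 4 were lower, led by Sox6 (-3.89 ± 0.11), Sox9 (-3.05 ± 0.19) and Sox5 (-1.81 ± 0.09), and 1 was not called. These counts are near the 41.3% and 39.3% of all tested genes called higher and lower between these groups.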

How the data were processed

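Gene counts of 9 mouse RNA libraries (3 groups of 3) were analysed. The authors deposited raw counts of reads per gene as whole numbers. Per the labels' protocols, libraries were made from total RNA by the dUTP method, which marks strand. Per the submitters' processing notes, BWA 0.7.2, featureCounts and DESeq 1.10.1 were used with mm10; the strand setting of the counting and the annotation are not given in the sources used, so reads of overlapping genes on opposite strands cannot be told apart. Symbols from GENCODE vM21 matched 35449 of 37224 Ensembl identifiers (95.2%). The deposited length equalled the union of the table's exons for all 37224 genes.

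Genes were filtered with filterByExpr (minimum count 10, minimum total 15), scaled by TMM and tested by quasi-likelihood with edgeR 4.0.16 in R 4.3.3, in 1 fit over the 9 libraries, with Benjamini-Hochberg adjustment over 18085 genes and a threshold of 0.05. The test was also run on simulated counts drawn around MEF means, in which far fewer genes changed than were called here. Normalised CPM use TMM-scaled library sizes. The biological coefficient of variation was 7.91%. Library totals ran from 27501521 to 38975523 counts, and counting intervals (exact, 95%) cover counting error only. Runs of at least 5 Gly-X-Y triplets were counted in the coding sequence.

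The members and gene lists were chosen with earlier results of these data known. Values per library are given for members with a mean of at least 20 CPM in any group or called higher in a comparison with at least 1 CPM in the higher group (39 members), and of the partner lists the 3 called genes with the largest fold in each direction, or all of lists of 8 or fewer. Sc65, an older symbol of P3h4, and Col21a1 were not analysed here, and the summed level of the Schwann cell list is not reported here. Alternatives were DESeq2 1.42.0, other scalings and filters, only the 2 groups compared, leaving out each library, and another gene length.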

Additional observations from a re-analysis of the deposited data

How the results depend on the processing

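The counts of members called higher and lower in each comparison stayed within 1.5 times of the reported ones in all 15 alternatives run, which were DESeq2, DESeq2 size factors, library size alone, 2 other filters, only the 2 groups compared and leaving out each of the 9 libraries. Of 1928 values of single members over these alternatives, 1922 kept their direction and their side of the threshold. Without GAD67 replicate 8, Col13a1 turned from -1.67 to 1.79 in iGABA against GAD67 cells (edgeR adjusted p = 0.368), with a range of -3.48 to 1.79 over the libraries left out and no call at either end, since that library holds all its GAD67 counts. Without the same library Col19a1 lost its call there (-1.64) and Col9a1 gained one (1.78). Col9a1 also gained one without iGABA replicate 5 (1.44), and Col15a1 without iGABA replicate 4 (-0.90). Leaving out 1 library moved a called fold by more than 1.5 times in 5 members. Without iGABA replicate 5 the log2 value of Col4a4 was -7.54 against MEF and -9.35 against GAD67 cells, and without iGABA replicate 6 that of Col13a1 against MEF cells was -8.69. Without GAD67 replicate 8 the log2 values in GAD67 against MEF cells were -8.66 for Col13a1, -7.63 for Col9a1, -8.27 for Col10a1 and -3.25 for Col19a1, and Col10a1 stood at 3.597 in iGABA against GAD67 cells. With library size alone in place of TMM the all-gene median log2 change in iGABA against MEF cells moved from 0.0471 to 0.463. Between iGABA and GAD67 cells size scaling alone gained calls for the partner genes Plod3, P3h2 and Adamts14, and DESeq2 size factors lost that of Sec23a. In GAD67 against MEF cells the median moved from 0.0016 to 0.224, and in iGABA against GAD67 cells from 0.0221 to 0.215. The collagen share of MEF counts was 9.74% of TMM-scaled library sizes against 8.40% of all counts. With transcript length in place of deposited exon length (chosen after seeing the data), the fibrillar share was 85.9% in MEF and 51.7% in iGABA libraries, the network share 4.93% and 12.7%, and the beaded filament share in iGABA libraries 4.16%; the other class shares compared moved by less than 1 SD. No paired analysis was possible because the replicate numbers in the labels are not shared between groups. Depth limits members with few counts, since 0 counts in a library can stand for up to 3.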
